A study of Mus musculus with 2 samples.

Results

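The levels of 4 mature microRNAs (miRNAs) of blood cells were examined, namely both arms of miR-142a and both arms of miR-223. They were chosen by name, and these 4 are among the 1881 mouse miRNAs on the array. The tissue was the whole femur with its marrow, from female mice of C57BL/6 background aged 9 months. The animals had undergone ovariectomy (OVX), in which the ovaries are taken out and most estrogen production ends, or a sham operation. Each group was 1 RNA sample pooled from 4 mice and read on 1 single-colour Agilent array labelled with Cy3. Since a group is 1 array, no difference has a replicate check and none was tested; "higher" and "lower" are statements about these 2 arrays. Each error printed comes from the repeated spots of a probe and holds no variation between mice.

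A miRNA is cut from a hairpin RNA, whose 5′ side gives the 5p arm and whose 3′ side gives the 3p arm. An arm is often kept and loaded into Argonaute while the other is degraded, so the arms of a hairpin can differ widely in level. Bases 2 to 8 of the loaded arm, the seed, pair with target mRNAs and lower their output. miR-142 is made across the blood-forming lineages and in few other cells, and both of its arms are known to be active. miR-223 is a miRNA of granulocytes and monocytes, where PU.1 and C/EBP factors drive it and where it restrains the growth of granulocyte precursors. Marrow holds these lineages together with the precursors of osteoclasts, the bone-resorbing cells that derive from the monocyte line and that increase in activity when estrogen is lost. In a bulk sample, fewer cells of a type and less RNA per cell cannot be told apart.

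The mature sequences are printed because each miRNA was read by probes complementary to it. They are from RefSeq on assembly GRCm38.p6, which held all 4, with the seed in capitals:
mmu-miR-142a-5p: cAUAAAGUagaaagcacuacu
mmu-miR-142a-3p: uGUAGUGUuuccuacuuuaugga
mmu-miR-223-5p: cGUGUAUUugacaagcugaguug
mmu-miR-223-3p: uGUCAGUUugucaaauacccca
The 4 seeds differ from each other. Among the 1608 array miRNAs matched by name to a RefSeq sequence, no other shared a seed with any of them.

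On GRCm38.p6 miR-142a-5p lies at chr11:87756867-87756887 and miR-142a-3p at chr11:87756903-87756925, on the plus strand. miR-223-5p lies at chrX:96242842-96242864 and miR-223-3p at chrX:96242884-96242905, also on the plus strand. RefSeq annotates both genes as miRNA genes. Mir142 lies outside any protein-coding gene, 1267 bases from Tspoap1, and Mir223 lies inside the long noncoding RNA gene F630028O10Rik, 4275 bases from Vsig4. The hairpins show how the arms face each other, with the arms in capitals:
Mir142: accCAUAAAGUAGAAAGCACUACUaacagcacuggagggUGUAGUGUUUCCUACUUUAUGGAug
Mir223: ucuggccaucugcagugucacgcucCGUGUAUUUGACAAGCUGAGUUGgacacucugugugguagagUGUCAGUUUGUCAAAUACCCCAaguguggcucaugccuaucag
The arms are 15 bases apart in Mir142 and 19 bases apart in Mir223.

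The array carried 2 probes for each of miR-142a-3p, miR-142a-5p and miR-223-3p, and 3 for miR-223-5p. The longest probe of each shows which part of the miRNA was read:
miR-142a-5p probe: agtagtgctttctacttta
miR-142a-3p probe: tccataaagtaggaaacactaca
miR-223-5p probe: caactcagcttgtcaaa
miR-223-3p probe: tggggtatttgacaaactgac
The miR-142a-3p probes, of 22 and 23 bases, pair with bases 2 to 23 and 1 to 23. The miR-142a-5p probes, of 18 and 19 bases, pair from base 4 or 3 to base 21. The miR-223-3p probes, of 20 and 21 bases, pair from base 3 or 2 to base 22. The miR-223-5p probes are the shortest, 15 to 17 bases, and pair from base 9, 8 or 7 to base 23. They thus leave out most of the seed, or all of it for the probe from base 9. The headers of the deposited files name mouse build mm9, on which the longest probe matches are chrX:93438188-93438203 for miR-223-5p and chrX:93438225-93438244 for miR-223-3p; each of these spans 1 base less than the probe. The files' matches for miR-142a end at the same bases as its arms on GRCm38.p6, so their build is not settled and they are not given here.

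Of all 1881 miRNAs, 299 were present on the OVX array and 202 on the sham array, where present means that over 50% of the spots of a probe were well above background. Both arrays held 197 of these. At the 75th percentile of the 350 probes that both arrays measured well above background, the OVX array was 2.02 times as bright as the sham array, a log2 gap of 1.01. Signals are therefore given first as read, then as levels, which are log2 signals minus that percentile of the array. A difference is the level in OVX minus that in sham and so is relative to the other miRNAs. Flagged outlier spots do not enter any value. miR-142a-3p, miR-142a-5p and miR-223-3p were present on both arrays, with 100% of the spots of each probe well above background, and miR-223-5p was present on neither.

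mmu-miR-223-3p, the arm of miR-223 known to act in granulocytes, was bright on both arrays. Its 21-base probe had signals of 7885 to 8793 on the OVX array, with a median of 8160.3 over 14 spots, against 5900.1 to 6678 on the sham array, with a median of 6226 over 15 spots. Its 20-base probe had 2515 to 3002 on the OVX array, with a median of 2866, against 1740 to 2426 on the sham array, with a median of 2306. No OVX spot reached down into the sham range on either probe, so as read the OVX array was brighter. The ratio of the mean signals was 1.32 for the longer probe and 1.28 for the shorter one, below the 2.02-fold by which the OVX array was brighter as a whole. After scaling the level of miR-223-3p was 4.21 in OVX and 4.84 in sham, a difference of -0.63 (spot SE 0.02), or 0.644-fold. All 14 OVX spots of each probe then lay below the sham range. For this and the other spot counts below, the share over all probes is not given. They describe the members' spots only and mark nothing particular to the members. The direction of miR-223-3p thus rested on the scaling, with 0.38 without scaling and 0.0052 when the arrays were scaled to their positive control probes.

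mmu-miR-223-5p, the other arm of the same hairpin, gave no signal above background. Its 3 probes averaged -3.30, -3.90 and -1.94 on the OVX array and -4.43, -2.69 and -0.822 on the sham array, each over 10 spots with an SD of 1.88 to 3.43. The highest of these spots was 2.84 on the OVX array and 2.85 on the sham array. Negative control spots had 1.36 ± 2.86 (SD between 978 spots) on the OVX array and 1.93 ± 2.81 (SD between 982 spots) on the sham array. The lowest probe mean counted as well above background was 19.3 on the OVX array and 17.8 on the sham array. No fold is given for miR-223-5p, and its part in the arm comparison could not be measured. A probe's brightness depends on the probe, as the 1-base difference between the miR-223-3p probes shows with means of 8213 and 2833 on the OVX array and 6212 and 2219 on the sham array. The signals of the arms therefore do not give their ratio in the tissue.

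**Figure D1:**
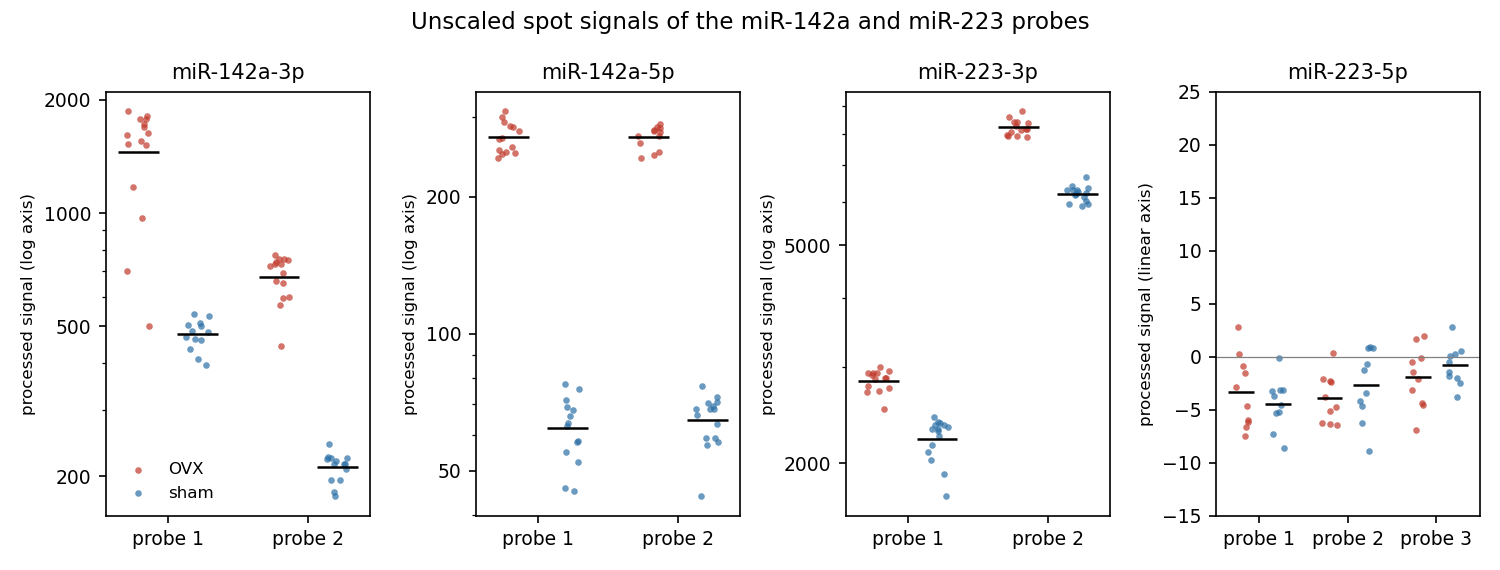
Processed signal of every spot used for the miR-142a and miR-223 probes, unscaled, in OVX (red, left) and sham (blue, right); horizontal lines are means, probes are ordered by their names in the files, and the vertical axis is logarithmic except for miR-223-5p. The miR-142a probes are 3.06 to 4.36 times as bright on the OVX array as on the sham array, the miR-223-3p probes 1.28 and 1.32 times, and the miR-223-5p spots lie around 0 on both.

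mmu-miR-142a-5p was 2.11-fold higher in OVX with this scaling. Its 19-base probe had signals of 244 to 289 on the OVX array, with a median of 275 over 12 spots, against 43.9 to 76.7 on the sham array, with a median of 68.2 over 15 spots. Its 18-base probe had 244 to 308 on the OVX array, with a median of 269, against 45.3 to 77.4 on the sham array, with a median of 63.3, over 14 spots each. The spots did not overlap between the arrays, before or after scaling, which was not set against the spots of other probes. Its level was 0.05 in OVX and -1.03 in sham, a difference of 1.08 (spot SE 0.04), and the probes gave 1.05 and 1.11.

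mmu-miR-142a-3p, the arm with the brighter probes, was 1.55-fold higher in OVX. Its 23-base probe had signals of 501 to 1863 on the OVX array, with a median of 1609 over 15 spots, against 395 to 541 on the sham array, with a median of 483 over 13 spots. Its 22-base probe had 443 to 773 on the OVX array, with a median of 722 over 15 spots, against 177 to 244 on the sham array, with a median of 216 over 14 spots. Its level was 1.93 in OVX and 1.30 in sham, a difference of 0.63 (spot SE 0.06), and the probes gave 0.60 and 0.67. After scaling, 12 of 15 OVX spots of the longer probe and 14 of 15 of the shorter one lay above the sham range. The longer probe had the widest spread of the 6 probes with a signal, a coefficient of variation of 29.1% on the OVX array against 9.26% on the sham array.

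The dimmest OVX spots of miR-142a-3p lay at the edge of the array. The 4 lowest of the 15 OVX spots of the longer probe were in the first 20 rows or the outer 5 columns on a side, and without them the signals ran from 1516 to 1863 with a mean of 1680.0 ± 121 (SD between 11 spots). Over all probes that both arrays measured well above background, spots in the first 5 columns deviated from their probe's median by -0.16 on the log2 scale on the OVX array and by -0.06 on the sham array. Spots in the last 5 columns deviated by -0.01 on the OVX array and by -0.13 on the sham array. The part of position in the 4 low spots of the longer miR-142a-3p probe was not tested. Without edge spots, a setting added after seeing the data, the differences were 0.75 for miR-142a-3p, 1.04 for miR-142a-5p and -0.65 for miR-223-3p.

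The gene Mir142b lies on the opposite strand of Mir142, and its miRNA has 2 probes of its own on the array. It is printed to show the overlap, with its seed in capitals:
miR-142b: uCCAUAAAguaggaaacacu
This sequence is the reverse complement of 20 bases of miR-142a-3p, from base 4 on. It also resembles miR-142a-5p, with 2 mismatches over an overlap of 18 bases, so its probes resemble those of miR-142a-5p. The miR-142b probes averaged -1.80 and -2.53 on the OVX array and -1.80 and -2.75 on the sham array, over 15 spots each, with 0% of the spots well above background. They thus read at background where the miR-142a-5p probes read 271 and 270.2 on the OVX array and 62.1 and 64.8 on the sham array.

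Of the 3 arms present on both arrays, 1 was at least 2-fold higher in OVX and 0 were at least 2-fold lower. Among all 197 miRNAs compared, 2.03% were at least 2-fold higher and 2.03% at least 2-fold lower. The difference of miR-142a-5p was under 2-fold in 5 of 16 other settings of the processing, and the count of miRNAs at least 2-fold apart ran between 0 and 97 over the settings. At 1.5-fold both arms of miR-142a were higher, where 11.2% of all were, and miR-223-3p was lower, where 14.7% of all were. In the 16 other settings miR-142a-3p was under 1.5-fold in 2, at 0.41 and 0.45 on the log2 scale, and miR-223-3p was not 1.5-fold lower in 8, of which 2 placed it above 0. In the order of the 197 differences from the highest, miR-142a-5p stood at place 3, miR-142a-3p at 21 and miR-223-3p at 171. The median of all was -0.04 and their SD 0.52. Relative to that median miR-142a-5p was at 1.12, miR-142a-3p at 0.67 and miR-223-3p at -0.59.

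**Figure D2:**
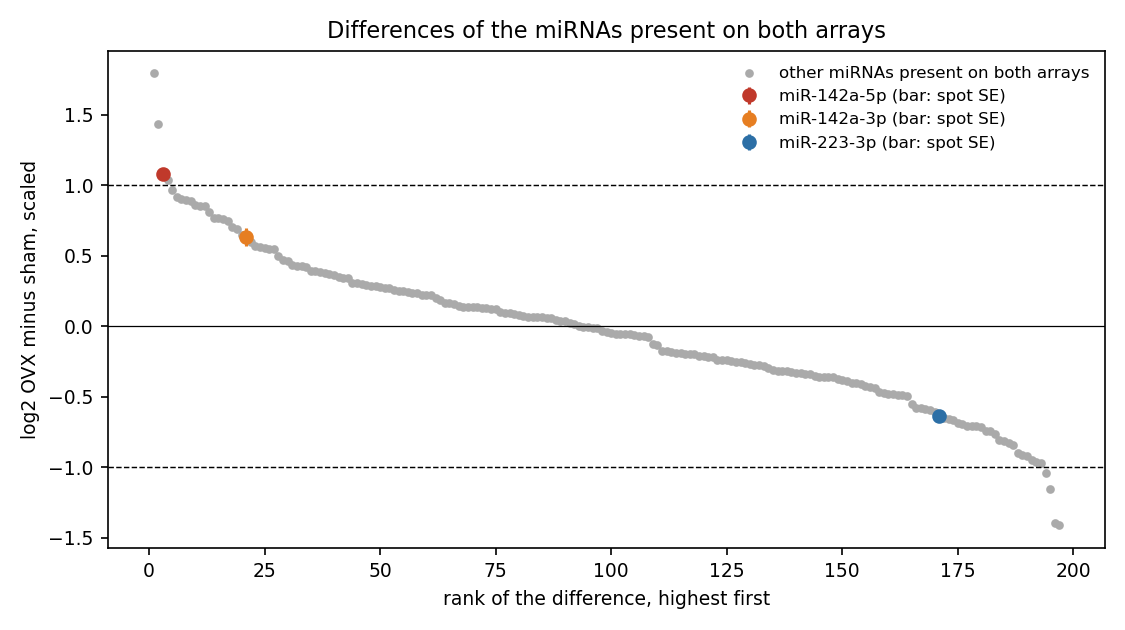
Log2 difference, OVX minus sham after scaling, of the 197 miRNAs present on both arrays, ordered from the highest; coloured points are the miR-142a and miR-223 arms with bars of 1 spot SE, and dashed lines mark 2-fold. miR-142a-5p is past the upper line, and miR-142a-3p (0.63) and miR-223-3p (-0.63) lie inside the lines on opposite sides of 0.

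Subtracting the difference of a miRNA from that of another removes any constant factor between the arrays, so this comparison is the same for all scalings by a constant. The difference of miR-142a-3p exceeded that of miR-223-3p by 1.27 (spot SE 0.07), or 2.41-fold, and by 1.21 to 1.33 over the pairs of probes. It was 1.01 to 1.41 under the 16 other settings tried, at least 2-fold in each. The difference of miR-142a-5p exceeded that of miR-223-3p by 1.72 (spot SE 0.05), or 3.28-fold, with 1.01 to 1.72 under the same settings. The other scalings by a constant, no scaling and the other filters on dim probes leave both gaps unchanged by construction. These settings are therefore no check on the gaps. The gap between these blood-cell miRNAs was larger than the spot error, whereas the error between mice is unknown.

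The arms of miR-142a moved the same way and by different amounts. The difference of the 5p arm exceeded that of the 3p arm by 0.45 (spot SE 0.08), or 1.36-fold, and by 0.38 to 0.51 over the pairs of probes. It was smaller without edge spots (0.29), with quantile normalization (0.28), with the median over spots (0.31) and in the authors' deposited value table (0.21), and it was -0.075 with normexp background correction, which adds 50 to each signal and so compresses dim probes. Both arms were present for 9 hairpins. The size of the gap between arms ranged from 0.11 to 1.54 over these hairpins, with a median of 0.67, and miR-142a stood at place 7 from the largest. The 5p arm had the higher difference in 5 of the 9.

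**Figure D3:**
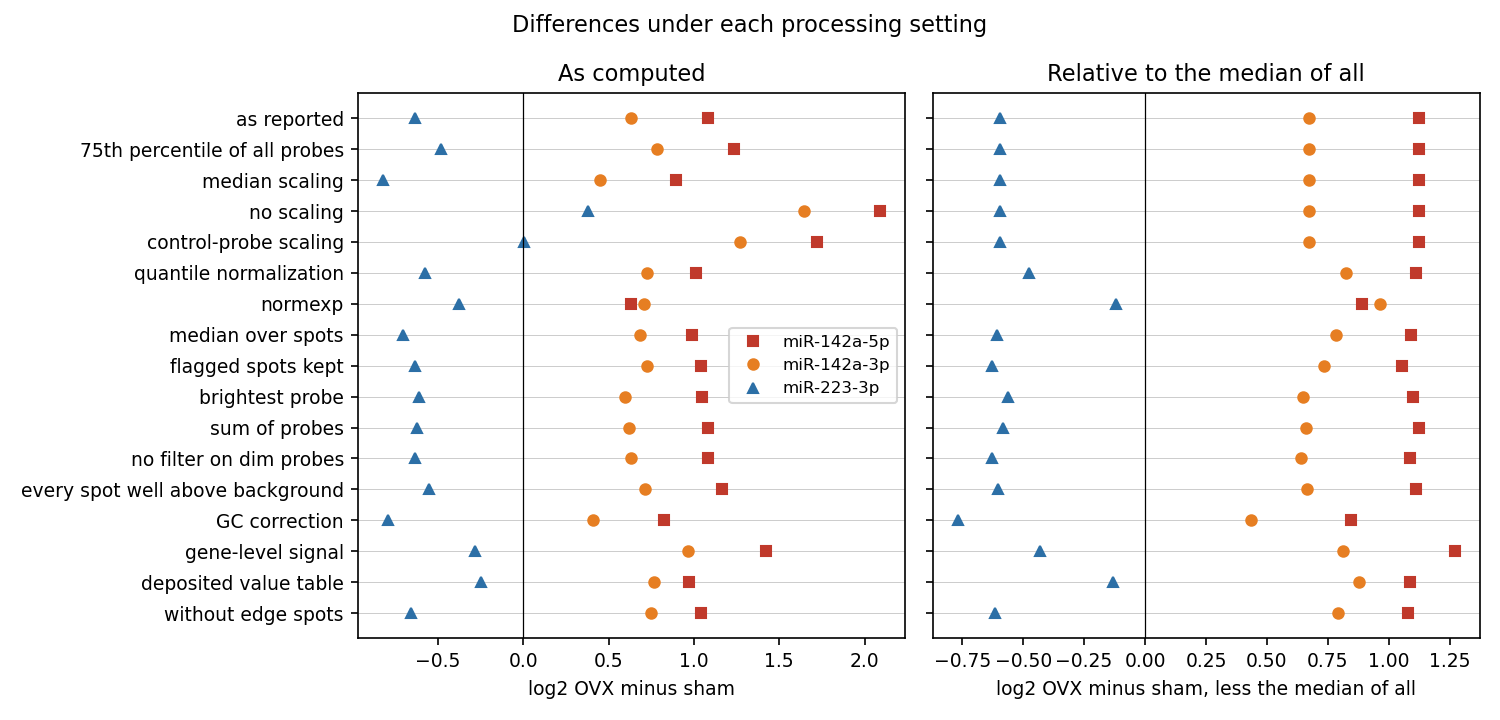
Log2 difference, OVX minus sham, of miR-142a-5p (squares), miR-142a-3p (circles) and miR-223-3p (triangles) under each processing setting, as computed (left) and after subtracting the median of all miRNAs compared in that setting (right). miR-223-3p is above 0 as computed when nothing is scaled (0.38) or when the control probes set the scale (0.0052). In the right panel both miR-142a arms are above 0 and miR-223-3p below 0 in every setting shown. Settings that only change a constant per array give the same values there by construction, so they are no check.

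Agilent's gene-level signal, which sums the probes of a miRNA, was 589 for miR-142a-3p on the OVX array and 146 on the sham array. It was 149 in OVX and 26.9 in sham for miR-142a-5p, and 3050 in OVX against 1788 in sham for miR-223-3p. For miR-223-5p it stood at its minimum of 0.1 and was called not detected on both arrays. Scaled to its own 75th percentile, this signal gave differences of 0.96, 1.42 and -0.28 for miR-142a-3p, miR-142a-5p and miR-223-3p. In the authors' deposited table the log2 values were 8.60 in OVX and 7.84 in sham for miR-142a-3p, 6.57 in OVX and 5.60 in sham for miR-142a-5p, and 10.97 in OVX and 11.21 in sham for miR-223-3p. These values were read with the row names moved by 1 row, since only then did the table follow the arrays.

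miRNAs listed under cell types, among them the cells that make miR-142a and miR-223, were set beside them. The lists were chosen with earlier results of these data known. Whether the miRNAs of a list come mainly from its cell type in this tissue was not tested, so a list does not measure its cells. Of the 6 miRNAs of the granulocyte and monocyte list on the array, 5 were present on both arrays, 1 above 0 and 4 below. Their median was -0.34 against -0.04 for all miRNAs, of which 93 were above 0 and 104 below. The 4 below 0 include miR-223-3p itself, so the list is not independent of it. Besides miR-223-3p the lowest was miR-24-3p, with levels of -0.39 in OVX and -0.02 in sham, a difference of -0.37 (spot SE 0.04). The highest were miR-130a-3p, a miRNA of progenitors, with -2.37 in OVX and -2.63 in sham, a difference of 0.25 (spot SE 0.07), and miR-23a-3p, with -0.53 in OVX and -0.20 in sham, a difference of -0.33 (spot SE 0.05). None passed 2-fold, and 1 of the 5, miR-223-3p, was at least 1.5-fold lower, where 14.7% of all were, a share near that background. The summed signal of this list's probes (values below 0 taken as 0) was 12349 in OVX and 9252 in sham as read. Scaled, the sum was lower in OVX, 47.4 against 71.6 in sham. Most of it came from miR-223-3p.

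The lymphocyte list was led by miR-150-5p, a miRNA of mature B and T cells. It had a level of -0.04 in OVX and -1.48 in sham, a difference of 1.43 (spot SE 0.14). In the same list miR-29b-3p followed with 0.42 in OVX and -0.46 in sham, a difference of 0.89 (spot SE 0.08). For miR-150-5p and for miR-29b-3p only 1 probe entered the difference. The lowest were miR-181b-5p, at -2.39 in OVX and -2.03 in sham, and miR-181a-5p, at -2.09 in OVX and -1.88 in sham. Of the 6 on the array 5 were present on both arrays, 3 above 0 and 2 below, with a median of 0.22, and miR-155-5p was present on the OVX array only. The list's summed signal as read was 1454 in OVX and 518 in sham, and scaled it was 5.58 in OVX and 4.01 in sham.

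Red-cell miRNAs were also mixed. The differences of miR-451a (0.28) and of the arms of miR-144 (0.85 for 3p, 0.97 for 5p) were above 0 and that of miR-486a-5p (-0.71) was below, with a median of 0.56 over the 4. Their summed signal as read was 16536 in OVX and 6826.0 in sham, and scaled it was 63.4 in OVX and 52.8 in sham. miR-126a-3p, of endothelial cells and platelets, had a level of -1.51 in OVX and -2.27 in sham, a difference of 0.77 (spot SE 0.04), and miR-126a-5p was present on neither array. The part of cell makeup in the differences of miR-142a and miR-223-3p was not tested.

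**Figure D4:**
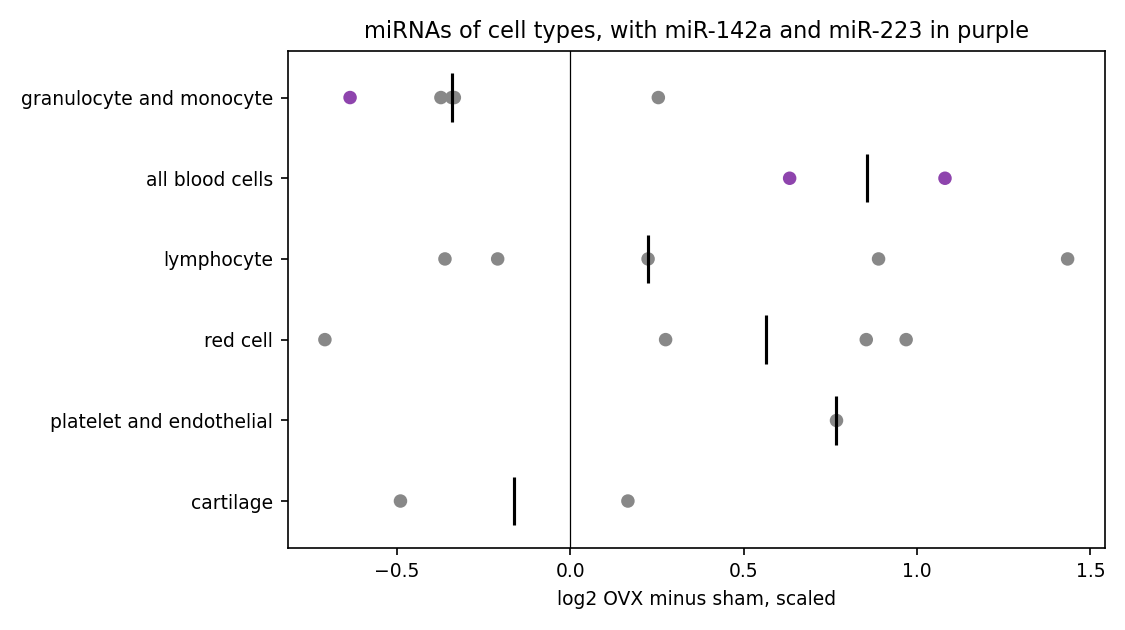
Log2 difference, OVX minus sham after scaling, of each miRNA present on both arrays in the lists of cell types; purple points are the miR-142a arms and miR-223-3p, grey points are other miRNAs, and vertical bars are list medians. miR-223-3p (-0.63) is the lowest of its list, and the miR-142a arms lie at 0.63 and 1.08. Between these arms lie miR-126a-3p (0.77), miR-29b-3p (0.89) and the arms of miR-144 (0.85 and 0.97), and miR-150-5p (1.43) lies above both.

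Of 5 miRNAs of bone matrix and stroma 0 were present on both arrays, 1 (miR-199a-3p) was present on the OVX array only, and miR-143-3p read at or below 0 on both. Their summed signal as read was 54.0 in OVX and 17.3 in sham, and scaled it was 0.207 in OVX and 0.134 in sham. Of 4 muscle miRNAs 0 were present on both arrays, while miR-133a-3p and miR-133b-3p were present on the sham array only. The muscle list's summed signal as read was 58.9 in OVX and 66.1 in sham, and scaled it was 0.226 in OVX and 0.512 in sham. Of 4 cartilage miRNAs the arms of miR-140 were present on both arrays, with differences of 0.17 for the 5p arm and -0.49 for the 3p arm and a median of -0.16, and those of miR-455 on neither. The cartilage list's summed signal as read was 415 in OVX and 255 in sham, and scaled it was lower in OVX, 1.59 against 1.98 in sham. Most of the listed blood-cell miRNAs and the arms of miR-140 were thus measured on both arrays of a femur with marrow. Of the 5 miRNAs listed for bone matrix and stroma 0 were. This describes the short lists used here and not the miRNAs of blood, bone or stroma in general.

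The miRNAs with the closest differences were listed for each arm, 3 apiece, as a description over these 2 arrays. For miR-142a-5p they were miR-26b-5p (1.04), miR-144-5p (0.97) and miR-574-3p (0.92). For miR-142a-3p they were miR-301a-3p (0.65), miR-1839-3p (0.60) and miR-466i-3p (0.69). For miR-223-3p they were miR-7042-5p (-0.65), miR-452-5p (-0.66) and miR-6769b-5p (-0.61). The gap to the closest was 0.04, 0.02 and 0.02 in that order.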

How the data were processed

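Per the labels, the RNA kit was mirVana. The label protocol names a cRNA amplification kit, which is not the usual labelling for a miRNA array. The authors deposited scanner files from Agilent Feature Extraction (version 10.7.1.1 per the file headers, 11.0.1.1 per the submitters' processing notes). Their processed intensity is background-subtracted and spatially detrended per the file headers, and is not normalized between arrays. The deposited table holds log2 values, and how they were normalized is not given in the sources used here. The names follow the arrays only when moved by 1 row (Spearman 0.99 per array, against 0.06 in OVX and 0.04 in sham as printed), and the column medians, also the floors, are -3.32 in OVX and -3.18 in sham. Centring beyond that stays unknown.

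Flagged spots were left out (2.90% in OVX, 2.75% in sham); no miRNA spot was saturated. Signals were averaged per probe, log2-transformed and scaled to the 75th percentile of the 350 probes that both arrays measured well above background, and these probes were averaged for a miRNA. The spot SE is propagated from the spread between spots. The number of arrays limits the precision. Calculations used Python 3.11.15, pandas 2.3.3 and, for normexp with an offset of 50, limma 3.58.1 in R 4.3.3. Alternatives were other scalings, normexp, other summaries per probe and miRNA, other filters, a linear correction for GC, the value table and the gene-level signal. The calculation was tested on simulated data. Members and lists were chosen with earlier results of these data known. Named besides the members were, per list, the 2 highest and 2 lowest differences (all where 4 or fewer), and the 3 miRNAs closest in difference to each arm.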

Additional observations from a re-analysis of the deposited data

How the results depend on the processing

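No test was possible with 1 array per group, and no paired analysis was possible because each group is 1 sample. Values were taken to have moved where they changed by more than 1 SD between spots. The direction of miR-223-3p depended on the scaling: it was above 0 when nothing was scaled (0.38) and when control probes set the scale (0.0052); it was -0.48 with the 75th percentile of all probes, -0.82 with median scaling, -0.38 with normexp, -0.79 with GC correction, -0.28 with the gene-level signal and -0.25 in the value table. miR-142a-3p stayed above 0 in all 16 other settings, from 0.41 to 1.65, and moved to 1.65 unscaled and 1.27 by the control probes. miR-142a-5p stayed above 0 in all 16, at 2.09 unscaled, 1.72 by the control probes, 1.42 with the gene-level signal, 0.82 with GC correction and 0.63 with normexp, and was at least 2-fold higher in 11 of them. The gap between the miR-142a arms turned to -0.075 with normexp and was above 0 in the other 15. The gap between miR-142a-3p and miR-223-3p did not move by more than the spot SD in any of the 16. For both gaps, the settings that only change a constant per array give the reported value by construction and check nothing. The number of miRNAs at least 2-fold apart was 8 as reported (4 higher, 4 lower), 15 with the 75th percentile of all probes (12 higher, 3 lower), 14 with median scaling (2 and 12), 97 unscaled (97 and 0), 40 by the control probes (40 and 0), 0 with normexp, 52 with the gene-level signal (24 and 28), 53 in the value table (10 and 43) and 51 at 1.5-fold (22 and 29). Over all miRNAs the median was -0.04 as reported, 0.97 unscaled and 0.60 by the control probes. The difference of the miR-223 arms has no value, since miR-223-5p was not well above background on either array.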

Other observations

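The signals of single spots differed with their position on the array. Spots in the first 20 rows deviated from the median of their probe by -0.17 on the log2 scale on the OVX array (201 spots) and by -0.16 on the sham array (198 spots), and the rest of the array by 0 on both. The outer columns differed between the arrays, with the first 5 columns dimmer on the OVX array (-0.16 over 110 spots, against -0.06 over 137 spots on the sham array) and the last 5 dimmer on the sham array (-0.01 over 131 spots on the OVX array, against -0.13 over 134 spots). The 23-base probe of miR-142a-3p had 4 edge spots in use on the OVX array and 2 on the sham array, and its difference was 0.80 without them and 0.60 with them. The miR-223-3p probes had 0 edge spots in use on the OVX array and 1 each on the sham array, and their differences were -0.69 and -0.62 without them. These settings were chosen after seeing the data.

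The deposited value table, read under its printed names, would give miR-223-3p and miR-142a-5p at the floor on both arrays. Read with the names moved by 1 row, it placed miR-223-3p at 10.97 in OVX and 11.21 in sham.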
